A study of Mus musculus with 6 samples.

Results

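The enzymes that burn fatty acids in mitochondria were followed in brown adipose tissue, which burns fat to make heat, with and without the fatty acid transporter Cd36. The genes were listed by name, with earlier results of these data known. They were 36 genes of the carnitine shuttle, the beta-oxidation spiral, its electron acceptors, mitochondrial acyl-CoA synthetases and the propionyl-CoA and malonyl-CoA branch. Of these, 35 had a probe on the array, and 32 had a probe with enough signal to be tested, out of 10151 genes tested in all. Acad11, a less studied acyl-CoA dehydrogenase, had no probe with its name, and Mut, the methylmalonyl-CoA mutase, is annotated under its newer symbol Mmut.

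Total RNA of brown adipose tissue came from male mice of genetic background C57BL6J at 3 months of age, all kept without food overnight. They were wild type (3 samples) or Cd36 null (3 samples), and each sample was hybridised to an Illumina bead array that reads 1 colour. The null allele is not limited to fat by anything in the labels, so the difference between genotypes is that of mice, not of brown fat cells alone. Whether the samples came from separate animals or from littermates is not stated, so a p-value speaks of the spread among the samples at hand, and part of that spread may be technical.

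A long-chain fatty acid is first joined to coenzyme A, then handed to carnitine by carnitine palmitoyltransferase 1 at the outer mitochondrial membrane and handed back to coenzyme A inside by carnitine palmitoyltransferase 2. Each turn of the spiral that follows runs through a dehydrogenase, a hydratase, a second dehydrogenase and a thiolase, and releases acetyl-CoA. The first dehydrogenase passes its electrons to the electron transfer flavoprotein and on to ubiquinone. Brown adipocytes oxidise fatty acids to drive uncoupled respiration, and fasting raises the supply of fatty acids from stores elsewhere.

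Values below are background-corrected, quantile-normalised log2 intensities, and each difference is Cd36 null minus wild type. A probe counted as detected on an array when its detection p-value there was under 0.05, and was tested when it was detected on at least 3 of the 6 arrays. A change was called at an adjusted p under 0.05 in limma, adjusted over all 17912 tested probes. Each gene is represented by its brightest tested probe, and for the 32 genes the differences of the other tested probes are given beside it. Levels of different probes are not compared as amounts of transcript, since each probe has its own brightness.

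Probes detected per array numbered 16929 to 17035 in wild type and 18139 to 19199 in null tissue. Over all tested probes, 897 gained and 399 lost signal without Cd36, so that 69.2% of the changes were rises. Under the alternative settings this share ran from 59.9% with array weights to 85.6% when arrays were scaled by their medians in place of quantiles. The tissue label fitted its markers: Ucp1, the uncoupling protein of brown fat, read 14.90 ± 0.08 (SD, n = 3) on wild type arrays and 14.78 ± 0.05 (SD, n = 3) on null arrays, and all 8 brown adipocyte markers with a tested probe were detected on every array. Cd36 itself had 1 probe, at background, which was detected on 1 of 3 wild type and 0 of 3 null arrays and could not check the genotype labels.

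Most genes of mitochondrial fatty acid oxidation did not pass the threshold. The single, dim probe of Acsf2, a mitochondrial enzyme that activates medium-chain fatty acids, rose 1.82-fold in null tissue. This is a difference of 0.86 log2, against 0.68 on the authors' values. Acsf2 was the only 1 of the 32 tested genes called by its brightest probe. That is 3.13% of them, where 5.73% of all 10151 genes were called higher. No gene was called lower by its brightest probe (0 of 32), where 2.11% of all genes were, and at an unadjusted p under 0.05 there were 5 genes in both directions together (15.6%, against 22.6% of all genes). A dim secondary probe of Etfdh, the oxidoreductase that delivers the flavoprotein's electrons to ubiquinone, fell by 2.54 on the log2 scale, while 2 other probes of the gene read -0.21 each. Over all 61 tested probes of these genes, 1 was called higher and 1 lower, where 5.01% and 2.23% of all tested probes were.

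The differences were small and mostly uncalled, with a median size near that of all genes. Their median was 0.02 over the 32 genes and -0.03 over all genes tested, and they ran from -0.62 for Acad12 to 0.86 for Acsf2. The median size without regard to sign was 0.207 for the 32 genes and 0.229 for all genes. A difference above 0.5 log2 in either direction was found for 3 genes (9.38%), against 19.3% of all genes. The 95% interval of the difference lay within 1 log2 unit, a 2-fold change either way, for 30 of the 32 genes (93.8%), against 81.3% of all genes. The exceptions were Acsf2, whose interval reached 1.21, and Acad12, whose interval reached -1.15. For 10 genes (31.3%, against 18.3% of all genes) the interval lay within 0.5. The median SE was 0.165 for the 32 genes and 0.189 for all genes, and these shares depend on that precision. The probes of the 32 genes were also brighter, with a median log2 intensity of 11.67 against 7.57 for all genes.

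**Figure D1:**
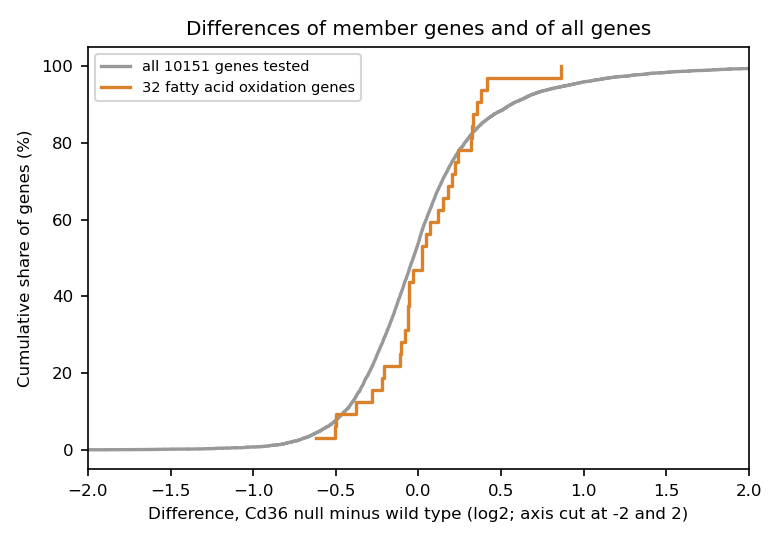
Cumulative share of genes (y axis, %) against the difference between Cd36 null and wild type on the log2 scale (x axis), for the 32 fatty acid oxidation genes and for all 10151 genes tested, each by its brightest probe. The 32 genes run from -0.62 to 0.86 with a median of 0.02, and all genes have a median of -0.03 with longer tails on both sides.

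**Figure D2:**
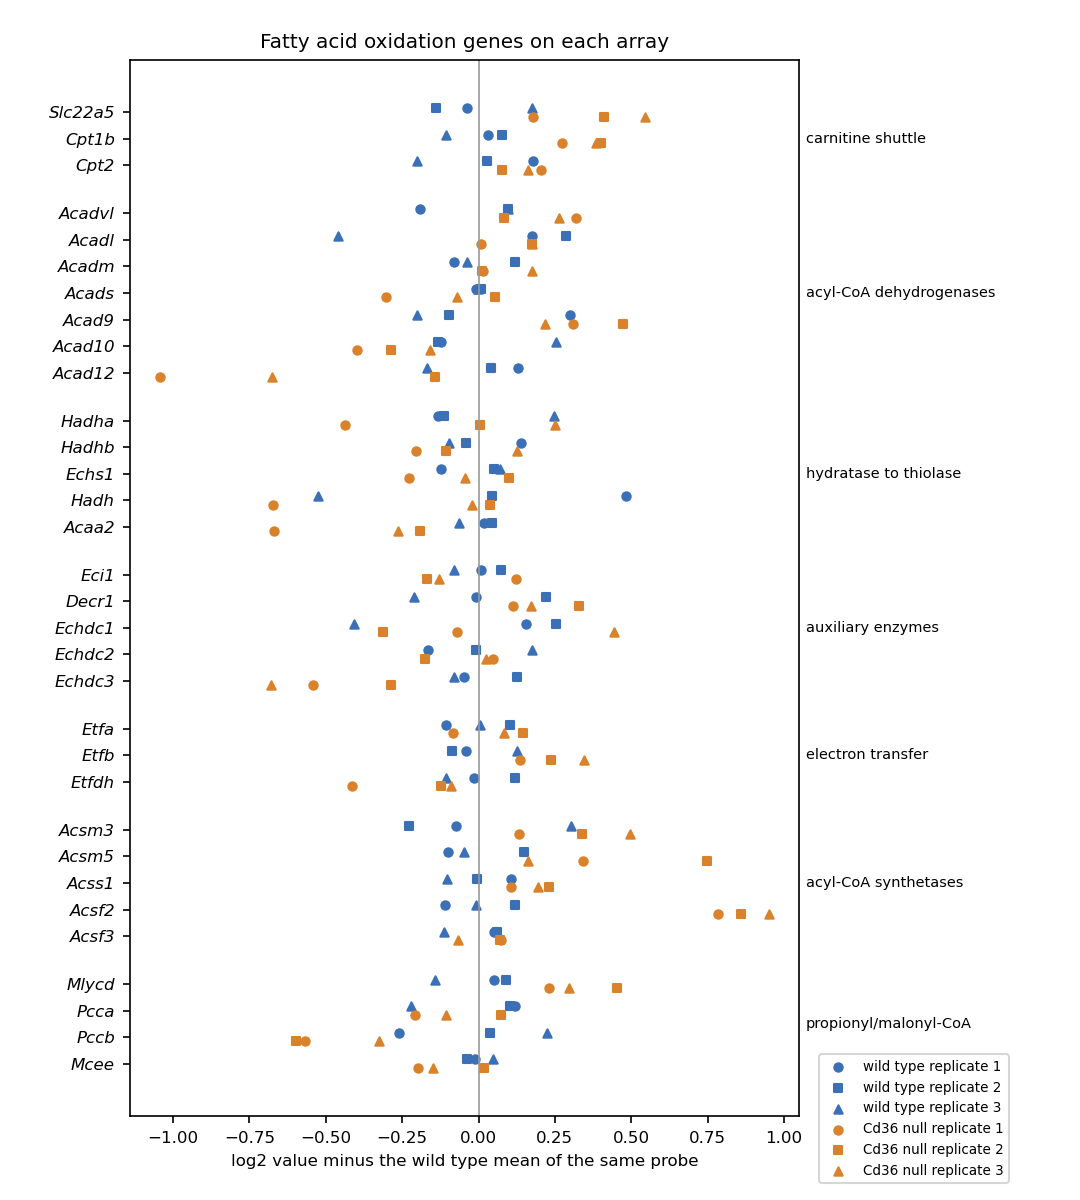
Normalised log2 value of each gene's brightest probe on each of the 6 arrays, minus the wild type mean of the same probe (x axis), with the genes ordered by step of the pathway (y axis). The null arrays of Acsf2 lie 0.78 to 0.95 above the wild type mean, and in most other rows the 2 genotypes interleave.

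Promoters are shown here for the 2 genes with a called probe, for the neighbours Acad10 and Acad12, and for Pccb, because these genes carry the differences described below. Each is the RefSeq sequence of GRCm38.p6 from 250 bases before to 50 bases after the start that the promoter table uses, read 5′ to 3′ on the gene's own minus strand. That start is the outer bound of the gene for Etfdh and Acad12, and lies 353, 93 and 56 bases inside that bound for Acsf2, Acad10 and Pccb. Capitals mark the binding element of NRF1, a factor that controls many nuclear genes of mitochondrial proteins, searched as GCGCA and GCGC with 1 base of any kind between them, on both strands and with overlaps allowed. The windows are chr11:94601737-94602036 for Acsf2, chr3:79628718-79629017 for Etfdh, chr5:121660461-121660760 for Acad10, chr5:121618889-121619188 for Acad12 and chr9:101034835-101035134 for Pccb.
Acsf2 promoter: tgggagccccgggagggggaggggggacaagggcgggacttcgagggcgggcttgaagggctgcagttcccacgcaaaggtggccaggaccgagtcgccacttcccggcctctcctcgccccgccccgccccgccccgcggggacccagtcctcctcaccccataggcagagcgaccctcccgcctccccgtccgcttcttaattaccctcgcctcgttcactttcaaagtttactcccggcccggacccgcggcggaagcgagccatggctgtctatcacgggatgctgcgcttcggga
Etfdh promoter: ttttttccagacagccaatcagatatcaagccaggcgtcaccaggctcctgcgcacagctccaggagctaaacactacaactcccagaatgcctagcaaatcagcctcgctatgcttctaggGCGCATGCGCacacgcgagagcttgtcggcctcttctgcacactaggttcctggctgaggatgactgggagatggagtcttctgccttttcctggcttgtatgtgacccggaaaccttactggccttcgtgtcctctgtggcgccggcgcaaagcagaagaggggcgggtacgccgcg
Acad10 promoter: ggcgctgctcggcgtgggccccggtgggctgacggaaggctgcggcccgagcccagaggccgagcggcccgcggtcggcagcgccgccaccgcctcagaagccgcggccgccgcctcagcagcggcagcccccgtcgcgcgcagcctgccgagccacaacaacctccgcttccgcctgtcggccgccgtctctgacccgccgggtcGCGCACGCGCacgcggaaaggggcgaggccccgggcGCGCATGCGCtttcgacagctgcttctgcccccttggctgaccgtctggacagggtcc
Acad12 promoter: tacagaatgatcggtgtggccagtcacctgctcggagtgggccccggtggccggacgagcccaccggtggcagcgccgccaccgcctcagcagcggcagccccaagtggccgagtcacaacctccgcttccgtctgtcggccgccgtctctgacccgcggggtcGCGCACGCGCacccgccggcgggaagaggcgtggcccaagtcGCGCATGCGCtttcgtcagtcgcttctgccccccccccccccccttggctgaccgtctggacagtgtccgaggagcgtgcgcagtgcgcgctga
Pccb promoter: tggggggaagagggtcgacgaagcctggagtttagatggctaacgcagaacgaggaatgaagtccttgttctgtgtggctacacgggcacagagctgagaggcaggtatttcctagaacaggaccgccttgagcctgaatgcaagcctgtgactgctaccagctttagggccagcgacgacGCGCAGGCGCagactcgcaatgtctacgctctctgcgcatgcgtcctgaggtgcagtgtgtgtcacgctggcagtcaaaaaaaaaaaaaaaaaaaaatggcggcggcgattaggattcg

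The Acsf2 promoter held 0 NRF1 elements in a window of 69.3% G and C. Counted from the table's start, 1 element began at base -128 in Etfdh, in Pccb 1 began at -69, in Acad10 2 began at -44 and -8, and in Acad12 2 began at -86 and -44. Of the 31 genes of the group with a promoter in the RefSeq table, 7 held the element, in 7 of the group's 33 promoters (21.2%): Acad10, Acad12, Echdc1, Etfb, Etfdh, Pccb and Slc22a5. The element was found in 4.60% of all 32851 promoters of that length and in 9.27% of the 10593 promoters of genes tested here. Among these 7 genes the differences took both signs, from 0.38 for Slc22a5 to -0.62 for Acad12. The direct repeat bound by PPAR receptors, searched as AGGTCA repeated after 1 base of any kind on both strands, was in 0 of the 33, in 0.0396% of all promoters and in 0.0283% of those of tested genes. The element of the estrogen-related receptors, searched as TNAAGGTCA on both strands, was in 0 of the 33, in 1.28% of all promoters and in 0.774% of those of tested genes. These are matches of letters in a short window and do not show binding.

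The carnitine shuttle was read through Slc22a5, the carnitine transporter of the cell membrane, and the palmitoyltransferases. Of its 5 genes 3 were tested, 0 were called, and the median difference was 0.35. Cpt1b, the outer-membrane palmitoyltransferase of muscle and brown fat, read 12.81, 12.85 and 12.67 in wild type and 13.05, 13.18 and 13.16 in null tissue, here and below in the order of the replicate numbers. All 3 null arrays lay above all 3 wild type arrays. The difference was 0.35 ± 0.15 (SE, n = 3 per genotype), a 1.28-fold ratio with an interval of 0.01 to 0.69, and did not pass (adjusted p = 0.215). A second Cpt1b probe read 10.78, 10.91 and 10.76 in wild type and 11.05, 11.24 and 11.31 in null tissue, again without overlap, and differed by 0.38 (adjusted p = 0.194). Groups without overlap and with null above wild type were found for 13.6% of all probes, and groups without overlap in either direction for 27.5%, so the same order at both Cpt1b probes is a description and no call.

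Slc22a5 read 9.62, 9.52 and 9.84 in wild type and 9.84, 10.07 and 10.21 in null tissue. The lowest null array and the highest wild type array were equal to 2 decimals, and the difference of 0.38 ± 0.17 (SE) did not pass (adjusted p = 0.247). Its other probes differed by 0.18 and -0.01. Cpt2, the inner-membrane transferase, read 13.96, 13.81 and 13.58 in wild type and 13.99, 13.86 and 13.95 in null tissue. Its genotypes overlapped at a difference of 0.15 (adjusted p = 0.661), and its other probes differed by 0.14 and 0.26. Cpt1a, the liver form of the first transferase, was not detected on any array by either of its 2 probes, and Cpt1c, the brain form, was not detected by its only probe. A probe without signal puts no limit on the transcript, so no level is given for these forms.

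The acyl-CoA dehydrogenases open each turn of the spiral and are named by the chain length they prefer. Of 8 listed genes 7 were tested, 0 were called, and the median difference was 0.07. Acadvl, the very-long-chain enzyme, differed by 0.22 ± 0.16 (SE, adjusted p = 0.494), with a second probe at 0.14, and Acadm, the medium-chain enzyme, by 0.07 ± 0.15 (SE, adjusted p = 0.853). Acadm read 14.70, 14.90 and 14.75 in wild type against 14.80, 14.80 and 14.96 in null tissue, with genotypes interleaved. Acadl, the long-chain enzyme, read 12.78, 12.89 and 12.14 in wild type and 12.61, 12.78 and 12.78 in null tissue, so that wild type replicate 3 was the lowest of the 6. Its difference was 0.12 ± 0.21 (SE, adjusted p = 0.807), and 2 further probes differed by 0.00 and, for a dim one, by -0.62 (adjusted p = 0.265). Acads, the short-chain enzyme, differed by -0.11 (adjusted p = 0.765), with a second probe at -0.21. Acad9, which also takes part in the assembly of respiratory complex I, differed by 0.33 (adjusted p = 0.344), with a second probe at 0.18.

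Acad12 had the smallest p of this step. It read 8.71, 8.62 and 8.41 in wild type and 7.54, 8.44 and 7.90 in null tissue. Null replicate 1 was the lowest array, and null replicate 2 lay within the wild type range, so the genotypes overlapped. The difference was -0.62 ± 0.23 (SE, n = 3 per genotype) with an interval of -1.15 to -0.09, and did not pass (adjusted p = 0.16). It was -0.41 without null replicate 1 (adjusted p = 0.339) and -0.86 without null replicate 2 (adjusted p = 0.0651). Acad10, its neighbour on chromosome 5, read 8.77, 8.76 and 9.15 in wild type and 8.49, 8.60 and 8.73 in null tissue. All null arrays lay below the wild type arrays, by a difference of -0.28 ± 0.17 (SE, adjusted p = 0.399), and a second probe differed by -0.23. The 2 promoters printed above matched at 213 of 235 aligned bases (90.6%). Probe sequences were not used here, and whether a probe of 1 of these related genes also binds the other's transcript was not tested, so both values are uncertain.

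The middle of the spiral showed no call and 5 negative differences out of 5 (53.9% of all genes' were), with a median of -0.06. Hadha and Hadhb encode the subunits of the trifunctional protein, which carries out the last 3 reactions on long chains. They differed by -0.06 ± 0.21 (SE, adjusted p = 0.907) and -0.06 (adjusted p = 0.877). The only Hadha probe is not annotated to a RefSeq transcript. Which transcript it reads was not tested, so its value may not stand for the gene. Echs1, the short-chain hydratase, differed by -0.06 (adjusted p = 0.885), with a second probe at -0.22. Hadh, the dehydrogenase of medium and short chains, spread widely, at 9.77, 9.33 and 8.76 in wild type and 8.61, 9.32 and 9.26 in null tissue. Its difference was -0.22 ± 0.29 (SE, adjusted p = 0.721). It was 0.01 without null replicate 1, 0.02 without wild type replicate 1 and -0.48 without wild type replicate 3. A second probe differed by 0.05.

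Acaa2, the mitochondrial thiolase, read 13.64, 13.67 and 13.56 in wild type and 12.96, 13.43 and 13.36 in null tissue. All null arrays lay below all wild type arrays, with null replicate 1 the lowest. The difference was -0.38 ± 0.18 (SE, n = 3 per genotype), with an interval of -0.77 to 0.02, and did not pass (adjusted p = 0.264). The other 3 probes of the gene differed by -0.28, -0.30 and -0.39. Without null replicate 1 the difference was -0.23 (adjusted p = 0.522), and without null replicate 2 it was -0.47 (adjusted p = 0.286).

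Auxiliary enzymes reshape unsaturated chains or remove side products. Of 5 tested genes 0 were called, with a median of -0.03. Eci1, the enoyl-CoA isomerase, differed by -0.06 (adjusted p = 0.88) and Decr1, the dienoyl-CoA reductase, by 0.20 ± 0.17 (SE, adjusted p = 0.551). Echdc1, which removes ethylmalonyl-CoA, differed by 0.02 ± 0.25 (SE, adjusted p = 0.979), and Echdc2, a relative of the hydratases, by -0.03 (adjusted p = 0.937), with other probes at -0.20 and -0.09. Echdc3, another hydratase relative, read 8.26, 8.44 and 8.23 in wild type and 7.77, 8.02 and 7.63 in null tissue. Every null array lay below every wild type array, and Echdc3 had the smallest unadjusted p after Acsf2 among the brightest probes. Its difference of -0.50 ± 0.17 (SE, n = 3 per genotype), a ratio of 0.705 with an interval of -0.88 to -0.12, did not pass (adjusted p = 0.118).

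The electron transfer flavoprotein collects electrons from all of the acyl-CoA dehydrogenases. Neither subunit was called. Etfa differed by 0.05 with an interval of -0.30 to 0.40 (adjusted p = 0.899), and its other probes by 0.12 and -0.05. Etfb differed by 0.24 ± 0.16 (SE) with an interval of -0.11 to 0.59 (adjusted p = 0.429). Etfb read 14.57, 14.52 and 14.73 in wild type and 14.74, 14.84 and 14.95 in null tissue. The null arrays lay above the wild type arrays by a narrow margin, and a second Etfb probe differed by 0.11.

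Etfdh, which encodes the oxidoreductase downstream of the flavoprotein, gave different answers at different probes. The brightest probe, annotated to a RefSeq transcript, read 12.68, 12.82 and 12.59 in wild type and 12.28, 12.57 and 12.61 in null tissue. The genotypes overlapped, and the difference was -0.21 ± 0.17 (SE, adjusted p = 0.522). A dim probe, also annotated to a RefSeq transcript, differed by -0.21 ± 0.23 (SE, adjusted p = 0.662).

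The third probe is annotated to a cloned cDNA and not to a RefSeq transcript. It read 7.34, 7.88 and 7.43 in wild type and 5.48, 4.63 and 4.91 in null tissue, from raw intensities of 218, 323 and 249 and of 138, 108 and 116. The genotypes were far apart, but detection on only 1 of 3 null arrays places the null values close to background, where a difference is poorly sized. The difference was -2.54 ± 0.25 (SE, n = 3 per genotype, adjusted p = 7.42e-04), a ratio of 0.171 with an interval of -3.10 to -1.99. On the authors' values it was -1.73, and without background correction -1.12, with the call kept in both. The 3 tested probes of Etfdh thus spanned 2.33 log2 units. Etfdh overlaps its neighbour Ppid at the end of the gene, and the Ppid probe differed by 0.17 ± 0.18 (SE, adjusted p = 0.648). Which transcript the third probe reads was not tested, and no fall of Etfdh as a gene is stated from it.

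**Figure D3:**
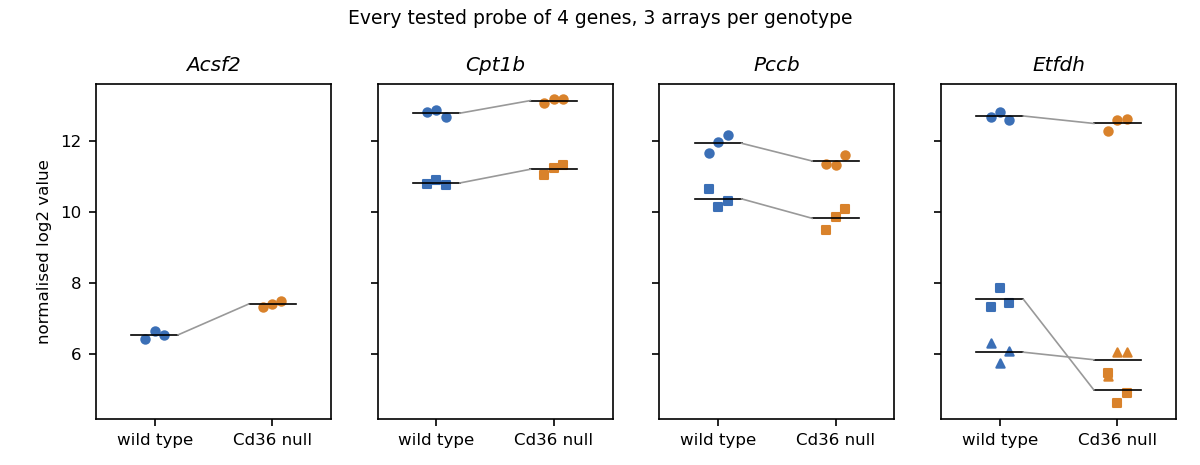
Normalised log2 value (y axis) of every tested probe of Acsf2, Cpt1b, Pccb and Etfdh on the 3 arrays of each genotype (points), with a symbol for each probe, horizontal lines at the group means and grey lines joining the means of a probe. Both probes of Cpt1b and of Pccb move together, while 1 probe of Etfdh fell by 2.54 on the log2 scale and the other 2 differ by -0.21 each.

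Acyl-CoA synthetases join fatty acids to coenzyme A, and the 5 in this group act on short and medium chains or on malonate. All 5 were tested, with differences above 0 in each, where 53.9% of all genes' were negative, and a median of 0.32. Acsf2 had a single probe. It read 6.44, 6.67 and 6.54 in wild type and 7.33, 7.41 and 7.50 in null tissue, from raw intensities of 153, 190 and 175 and of 269, 264 and 283. The null arrays lay above all wild type arrays, and the gap between the groups was wider than the range within either. The difference was 0.86 ± 0.15 (SE, n = 3 per genotype, adjusted p = 0.0111), with an interval of 0.52 to 1.21. It was called under all 16 alternative settings, from 0.48 without background correction to 1.06 under median scaling. On the authors' values the difference was 0.68. When any 1 array was left out its adjusted p lay between 0.0230 and 0.0469.

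The other synthetases did not pass. Acsm3, a medium-chain enzyme, differed by 0.32 ± 0.19 (SE, adjusted p = 0.383), and its other tested probes by 0.02, 0.29 and 0.64. Of these, the last read 6.51, 6.25 and 6.57 in wild type and 6.65, 6.98 and 7.61 in null tissue (adjusted p = 0.171), with null replicate 3 the highest of the 6. Acsm5, a related enzyme, was dim, at 5.09, 5.33 and 5.14 in wild type and 5.53, 5.93 and 5.35 in null tissue. The groups did not overlap, but the wild type arrays lay near background, with detection on 2 of 3. Its difference was 0.42 ± 0.19 (SE, adjusted p = 0.251). Acss1, the mitochondrial acetyl-CoA synthetase, read 12.59, 12.48 and 12.38 in wild type and 12.59, 12.71 and 12.68 in null tissue. The groups met at 12.59 and the difference was 0.18 ± 0.15 (SE, adjusted p = 0.559). Acsf3, which activates malonate, differed by 0.03 ± 0.15 (SE, adjusted p = 0.954).

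Odd-chain fatty acids and some amino acids end in propionyl-CoA, which a carboxylase, an epimerase and a cobalamin-dependent mutase turn into succinyl-CoA. Of 5 genes in this branch, malonyl-CoA decarboxylase included, 4 were tested, 0 were called and the median was -0.10. Pccb, the beta subunit of the carboxylase, read 11.67, 11.97 and 12.15 in wild type and 11.36, 11.33 and 11.60 in null tissue. The null arrays all lay below the wild type arrays. The difference was -0.50 ± 0.18 (SE, n = 3 per genotype), a ratio of 0.709 with an interval of -0.91 to -0.09, and did not pass (adjusted p = 0.149). A second Pccb probe read 10.64, 10.15 and 10.32 in wild type and 9.51, 9.87 and 10.10 in null tissue, again without overlap, at -0.54 (adjusted p = 0.166). Groups without overlap and with null below wild type were found for 13.8% of all probes. Pcca, the alpha subunit, differed by -0.08 (adjusted p = 0.843), with its other probes at -0.07 and -0.10, and Mcee, the epimerase, by -0.11 (adjusted p = 0.738). Mmut, the mutase, was not detected on any array.

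Mlycd, the decarboxylase that removes malonyl-CoA, the inhibitor of carnitine palmitoyltransferase 1, averaged 11.14 ± 0.12 (SD, n = 3) in wild type, at 11.20 and 11.24 on replicates 1 and 2 and lower on replicate 3. It read 11.37, 11.60 and 11.44 in null tissue. Its raw intensities were 2140, 2521 and 2132 in wild type and 2826, 3248 and 2956 in null tissue. All null arrays lay above all wild type arrays, and the difference of 0.33 ± 0.16 (SE, n = 3 per genotype) did not pass (adjusted p = 0.277). Over the whole group, the genotypes did not overlap with null higher for 7 of 32 genes (21.9%, against 15.6% of all genes) and with null lower for 4 (12.5%, against 13.8%). The genes with null higher include Slc22a5 and Acss1, whose closest arrays round to the same value, 9.84 and 12.59. They also include Etfb, whose groups lay a narrow margin apart.

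**Figure D4:**
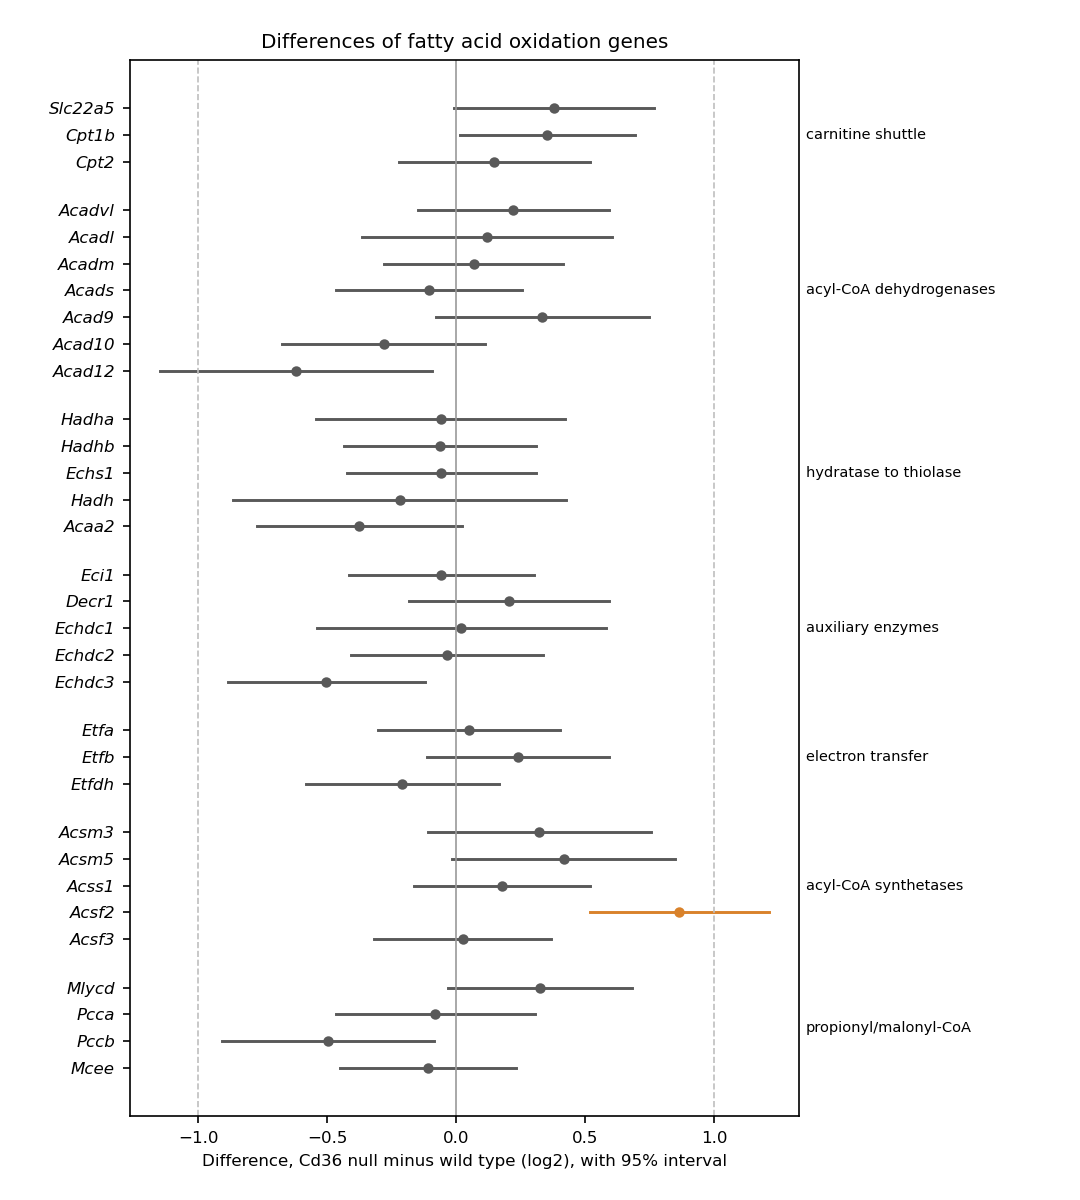
Difference between Cd36 null and wild type (x axis, log2) of the brightest probe of each of the 32 genes, ordered by step of the pathway (y axis), with its 95% interval; dashed lines mark a 2-fold change either way. Acsf2 at 0.86 is the only gene called, and its interval and that of Acad12 are the ones that reach past a dashed line.

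Genes next to this pathway were read in the same way. Among 9 tested mitochondrial acyl-CoA enzymes outside the group, most of them of amino acid breakdown, 0 were higher and 1 was lower. Over all genes 2.11% were lower, and the median of the 9 was -0.14. The enzyme called lower was Mmab, which makes the cobalamin cofactor of the methylmalonyl-CoA mutase. It read 9.31, 9.32 and 9.10 in wild type and 8.63, 8.34 and 8.48 in null tissue, with no overlap, and fell by 0.76 on the log2 scale (SE 0.16, n = 3 per genotype, adjusted p = 0.0236). A second Mmab probe fell by 0.87 (adjusted p = 0.015), and its 2 dimmer probes were at -0.51 and -0.18 without passing. Gcdh, the glutaryl-CoA dehydrogenase, differed by -0.51 (adjusted p = 0.111) and Acad8, the isobutyryl-CoA dehydrogenase, by -0.60 (adjusted p = 0.136).

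Of 8 further genes of carnitine and malonyl-CoA handling 3 were tested and 0 called. Slc25a20, the carnitine-acylcarnitine carrier, differed by 0.24 (adjusted p = 0.568), with a second tested probe at -0.02. Crat, carnitine acetyltransferase, differed by 0.35 (adjusted p = 0.303), with other tested probes at 0.29 and 0.08. Acacb, which makes malonyl-CoA at mitochondria, differed by -0.32 (adjusted p = 0.297). Of 10 acyl-CoA synthetases outside the group 5 were tested and 0 called, with a median of -0.24. Acsl4, which prefers polyunsaturated chains, had the smallest p, at 0.73 by its brightest probe (adjusted p = 0.0818), which was dim. A second Acsl4 probe, also dim, differed by -0.14 (adjusted p = 0.816). Of the genes that supply flavin or support the flavoprotein 4 were tested and 0 called, and Slc25a32, the mitochondrial carrier linked to flavin and folate, differed by -0.64 (adjusted p = 0.0535). Of 10 tested genes of the citric acid cycle, the respiratory chain and other mitochondrial functions 0 were called, and their median was 0.01.

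The regulators of fatty acid oxidation genes mostly had negative differences. Of 15 tested regulators 0 were called by their brightest probe, their median was -0.37, 13 of the 15 differences were negative (53.9% of all genes' were), and for 7 of the 15 all null arrays lay below all wild type arrays, as for 13.8% of all genes. Pparg, the nuclear receptor of fat cells, was called lower by 2 of its other probes, at -1.58 (adjusted p = 0.00202) and -0.74 (adjusted p = 0.0485), while its brightest probe was at -0.64 (adjusted p = 0.0828). The brightest Pparg probe read 12.28, 12.36 and 12.47 in wild type and 11.53, 11.60 and 12.09 in null tissue, without overlap. Lpin1, a phosphatidate phosphatase that also acts as a coactivator, was called lower by 1 probe (-0.58, adjusted p = 0.0484), with its brightest at -0.52 (adjusted p = 0.0789). Ppargc1b, a coactivator of mitochondrial genes, differed by -0.79 ± 0.21 (SE, adjusted p = 0.0572). No test of the difference between regulators and pathway genes was run.

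Known PPAR targets that act outside mitochondrial beta-oxidation were in part higher. Of 11 tested, 4 were higher and 0 lower, where 5.73% and 2.11% of all genes were, and the median was 0.41. These 4 were Acot2, a mitochondrial acyl-CoA thioesterase, at 2.43, Ehhadh and Acaa1b, which carry out peroxisomal beta-oxidation, at 2.06 and 1.96, and the hormone Fgf21 at 1.16. The other peroxisomal enzymes tested in this list were not called. Hsd17b4 differed by 0.44 (adjusted p = 0.173) and Acaa1a by -0.17 (adjusted p = 0.568). A second, dimmer Acot2 probe differed by -0.30 (adjusted p = 0.445), and Acot1, a cytosolic thioesterase, was at 0.09 by its brightest probe while another of its probes rose by 1.22 (adjusted p = 0.00227). On each array, the mean level of this list against its wild type mean was -0.08 to 0.04 in wild type and 0.67 to 0.96 in null tissue. The mean level of the 32 genes of mitochondrial oxidation was -0.05 to 0.04 in wild type and -0.08 to 0.09 in null tissue, and the genotypes overlapped.

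**Figure D5:**
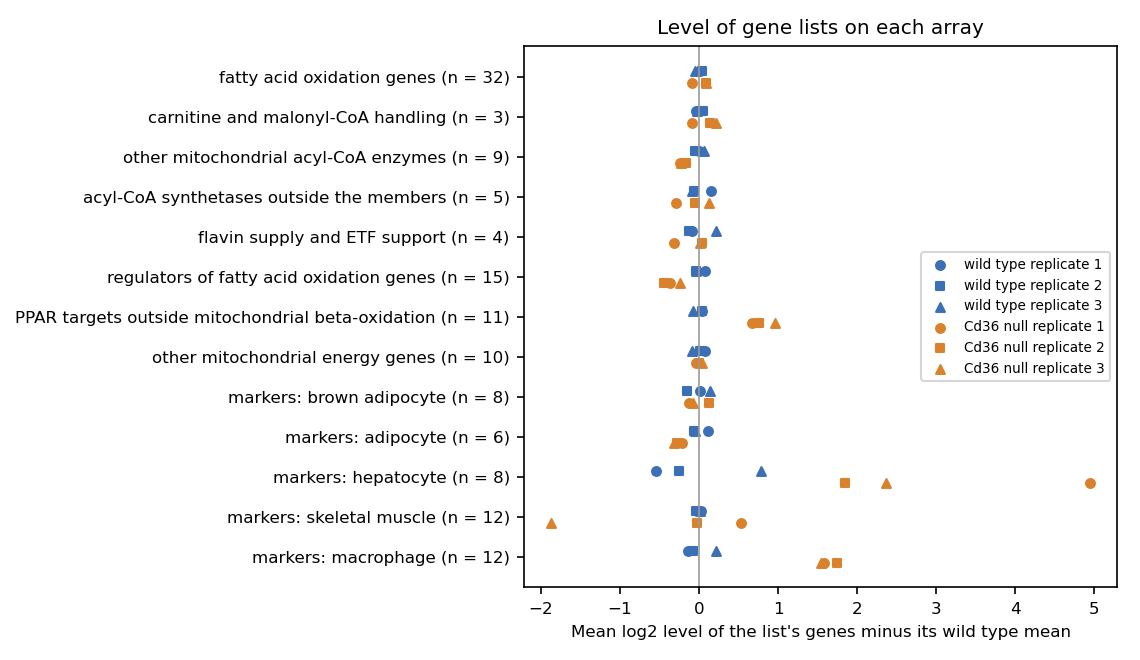
Mean log2 level of the genes of each list on each array, minus the list's wild type mean (x axis), for the fatty acid oxidation genes, the neighbouring pathways and markers of cell types (y axis, with the number of genes tested). The 32 fatty acid oxidation genes stay between -0.08 and 0.09 on the 6 arrays, while the macrophage and hepatocyte markers are higher on all 3 null arrays and the muscle markers spread over them.

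The null samples also held more macrophage and hepatocyte transcripts, the latter unevenly over the arrays. Of 12 tested macrophage markers 10 were higher and 0 lower, where 5.73% and 2.11% of all genes were. The list's mean level against its wild type mean was -0.14 to 0.21 in wild type and 1.55 to 1.74 in null tissue. Trem2 was not detected on any wild type array, and 1 of the 12 markers was tested through its null arrays alone. Of 8 tested hepatocyte markers 6 were higher, against 5.73% of all genes. The list stood at -0.54 to 0.79 in wild type and at 4.95, 1.85 and 2.36 on null replicates 1 to 3. Alb, Fgb and Tat were not detected on any array. Fga was detected on no wild type array and Ahsg on 1 of 3, and both on all 3 null arrays. Both genes thus met the detection filter through the null arrays, where they are high. The count of 6 includes Fga and Ahsg and is a description only. Of 12 tested skeletal muscle markers 0 were called, but all 12 differences were negative (53.9% of all genes' were), with a median of -0.40. The list's level ranged from 0.53 on null replicate 1 to -1.87 on null replicate 3. Of 8 brown adipocyte markers 0 were higher and 1 was lower, where 2.11% of all genes were. The lower marker was Prdm16, a transcription factor of brown fat identity, at -0.71 (adjusted p = 0.0249). Of 6 adipocyte markers Lep alone was lower, at -1.89 (adjusted p = 0.0024).

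In bulk tissue, fewer cells of a type and less RNA per cell cannot be told apart, and the part of these other transcripts in the values above was not tested. On null replicates 1 to 3 Acsf2 read 7.33, 7.41 and 7.50. The hepatocyte list stood at 4.95, 1.85 and 2.36 there, and the macrophage list at 1.59, 1.74 and 1.55. Whether either list bears on the Acsf2 difference was not tested. Of the 32 genes, 21 (65.6%, against 41.1% of all genes) had their lowest null value on replicate 1, 10 of the 17 with a positive difference and 11 of the 15 with a negative one.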

How the data were processed

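The deposited scanner table holds a linear intensity and a detection p-value per probe and array, per the file headers. The authors' processed table holds log2 values, and limma is named, without a version, in the submitters' processing notes; neqc with an offset of 50 matched it to within 0.0240 log2, and its column medians lay at 5.92 to 5.93. The intensities were corrected and quantile-normalised here with neqc (offset 16) in limma 3.58.1 under R 4.3.3. The offset shrinks differences of dim probes. Probes were tested with lmFit and eBayes and adjusted by Benjamini-Hochberg over all 17912. The fit was tested on simulated data.

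Probe names come from the platform annotation: 34875 probes had 1 symbol, 18 several and 10374 none, and probes with several or none name no gene. A further 970 probes were used for normalisation only. Values, normalised or for Mlycd raw, are given on every array for genes with a called probe, genes whose genotypes do not overlap and the smallest p of each step. Of neighbouring lists, genes with a called probe and up to 3 of smallest p are named. Hsd17b4 and Acaa1a are given in addition, beside the other peroxisomal enzymes. The genes and lists were chosen with earlier results of these data known. The number of arrays limits the precision. Replicate numbers were not used to pair the samples in the main fit. Deviations of same-numbered samples correlated at 0.08, -0.02 and 0.03, and the best match had the same number for replicate 1 only. So few values cannot exclude a weak factor shared by same-numbered samples.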

Additional observations from a re-analysis of the deposited data

How the results depend on the processing

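Under 16 alternative settings, 971 of 973 values of the tested probes kept their side of the threshold, 2 became called and 0 lost a call or reversed; 48 uncalled values over 21 probes changed sign. Probes called higher numbered 2 without background correction (Acsf2, and Cpt1b at an adjusted p of 0.0477) and 2 with array weights (Acsf2, and Acsm3 at 0.0438). When detection on all 6 arrays was required, 0 were called lower, since the Etfdh probe was then not tested. Over all probes, median scaling gave 1359 higher and 228 lower, and array weights 1430 and 958. The replicate block gave 218 lower over all probes and changed no call of the fatty acid oxidation genes. Leaving out 1 array gave 476 to 780 higher and 113 to 263 lower over all probes, both lowest without wild type replicate 2, when fewer samples entered the fit. The calls of Acsf2 and of the Etfdh probe were kept each time. The median difference of the group's tested genes, a set that changes with the detection filter, lay between -0.02 and 0.08 in all settings. It was 0.07 under median scaling, where that of all genes moved from -0.03 to 0.09. A slide block was not run because the files name no slide. Dim probes near background, such as those of Etfdh, Acsf2 and Acsm5, are the least certain in size.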
